A study of Mus musculus with 60 samples.

Results

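The mitochondrial ribosomal protein genes were described in MSTN-null and wild-type mice at 3 developmental time points. The group holds every gene on the arrays whose platform symbol begins with Mrps or Mrpl followed by a number, 76 of the 18193 genes measured, with 29 named for the small subunit and 47 for the large subunit. Each gene was represented by its brightest probe set over the 10 pools of a time point, since 42 of the 76 genes have several probe sets and the group has 156 in all. The mice were MSTN-null C57BL/6J mice, which lack myostatin, a secreted inhibitor of skeletal muscle growth, and wild-type C57BL/6J mice. The tissue was the whole embryo at 13.5 d.p.c. (days post coitum), the embryonic hindquarter at 17.5 d.p.c., and the pectoralis muscle of mice aged 35 days (d35). There were 5 MSTN-null and 5 wild-type pools at each time point, each of RNA from 3 animals, and every pool was hybridized to chips A and B of the Affymetrix MOE430 set. Values are log2 intensities, a difference is MSTN-null minus wild type, which is the opposite direction to the study's WT/null ratio, and a gene is called differentially expressed (DE) at a limma q-value below 0.05. The animals are one knockout on one background, and a pool of 3 animals hides the differences between them.

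Mitochondria carry their own ribosome, which translates the few proteins encoded in mitochondrial DNA, all of them core parts of the respiratory chain and ATP synthase. Its RNA is made in the mitochondrion, whereas all of its proteins are encoded in the nucleus, translated in the cytosol and imported. Many of these proteins have a counterpart in the bacterial ribosome, and others were added during mitochondrial evolution. In this group 45 genes were assigned to the proteins with a bacterial counterpart and 31, Mrps36 among them, to those specific to mitochondria. The assignment was written from general knowledge and was not checked against a reference. Names do not always give the subunit: Mrps18a and Mrps30 belong to the large subunit in the assembled particle, and Mrps36 is now counted as a part of the 2-oxoglutarate dehydrogenase complex.

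At d35, 5 members were DE (6.58%, next to 5.96% of all genes), and the starts of these genes are shown because nuclear genes for mitochondrial proteins are known targets of a small set of transcription factors. Each run holds the 150 bases before and the 30 after the annotated start, from RefSeq on GRCm38.p6, 5′ to 3′ on the strand of the gene. Capitals mark the letters CGCANGCG, a nuclear respiratory factor 1 motif, or CCGGAAG, an ETS family motif, on either strand.
Mrpl34 (chr8:71464776-71464955, plus strand): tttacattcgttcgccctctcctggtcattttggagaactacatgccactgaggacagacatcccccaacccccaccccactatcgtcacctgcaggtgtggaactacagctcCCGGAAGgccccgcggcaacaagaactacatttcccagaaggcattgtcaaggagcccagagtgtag
Mrps9 (chr1:42851083-42851262, plus strand): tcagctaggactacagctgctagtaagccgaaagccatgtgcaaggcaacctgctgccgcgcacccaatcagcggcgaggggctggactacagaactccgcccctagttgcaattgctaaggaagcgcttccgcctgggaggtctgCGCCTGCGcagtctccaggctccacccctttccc
Mrpl44 (chr1:79775868-79776047, plus strand): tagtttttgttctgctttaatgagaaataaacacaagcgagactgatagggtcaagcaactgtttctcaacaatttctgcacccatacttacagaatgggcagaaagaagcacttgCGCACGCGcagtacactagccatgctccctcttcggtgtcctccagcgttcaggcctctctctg
Mrpl3 (chr9:105053118-105053297, plus strand): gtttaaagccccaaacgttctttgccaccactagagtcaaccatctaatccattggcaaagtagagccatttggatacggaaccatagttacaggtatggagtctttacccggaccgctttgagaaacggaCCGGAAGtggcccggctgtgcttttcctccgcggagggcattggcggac
Mrpl39 (chr16:84735215-84735394, minus strand): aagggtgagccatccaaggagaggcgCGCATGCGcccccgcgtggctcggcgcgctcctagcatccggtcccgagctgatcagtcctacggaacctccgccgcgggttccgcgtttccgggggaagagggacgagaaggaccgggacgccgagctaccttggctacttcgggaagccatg

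The motif began 4, 34 and 124 bases before the start in Mrps9, Mrpl44 and Mrpl39 for CGCANGCG, and 37 and 19 bases before it in Mrpl34 and Mrpl3 for CCGGAAG. Start windows of 300 bases, 250 before the start and 50 after it, were found for 67 of the 76 genes, in 73 windows. CGCANGCG was present in 19 of the 73 windows (26%), against 8.21% of the 32851 windows of all genes. CCGGAAG was present in 25 of the 73 mitoribosomal windows (34.2%), against 8.86% of all windows. Most members with either of these motifs were not DE at d35, and a link between motif and call was not tested. AAGATGGC, a YY1 motif, was in 16.4% against 2.75%, and was carried by Mrps7, Mrps11, Mrps12, Mrps18a, Mrps24, Mrps27, Mrpl32, Mrpl35, Mrpl36, Mrpl37, Mrpl42 and Mrpl49. GGGCGG, an SP1 motif, was in 53.4% against 35.7%, while TATAAA was in 6.85% against 13.6%. All motifs were searched on both strands, and the base composition of the windows was not matched. These matches describe letters in the window and are no measure of binding.

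Several facts of the arrays touch these genes. Levels of the 3 time points were on different scales, so they were not set against each other. Leading skeletal muscle markers had high signals at d35, with alpha-actin (Acta1) averaging 14.54 in MSTN-null and 14.52 in wild-type pools and muscle creatine kinase (Ckm) 14.49 and 14.41. The targeted gene was not analysed here. At 17.5 d.p.c. the chip B array of wild-type pool 1 had a median correlation of 0.952 with the other arrays, against 0.992 for the next lowest. Only 3 of the 76 genes were read from chip B at d35. The brightest probe set changed with time point for 8 genes, so this number can differ at 17.5 d.p.c. The signal difference between the 3′ and 5′ probe sets of actin, a sign of RNA quality, on chip A of the 13.5 d.p.c. set ran 0.20 to 0.35 for MSTN-null, against 0.07 to 0.21 for wild type. At d35 it ran 0.06 to 0.21 for MSTN-null, against 0.13 to 0.58 for wild type, whose pools 2 and 3 had the highest values (0.58 and 0.31). The part of RNA quality in the differences below was not tested.

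At 13.5 d.p.c. no mitochondrial ribosomal protein gene was DE (0 of 76), where 0.324% of all genes were. The median difference of the group was -0.01 against 0.01 over all genes, with 33 members higher and 43 lower in MSTN-null embryos, where 57.3% of all genes were higher. The balance of the members turned to 48 higher under a further quantile normalization. No member had non-overlapping genotypes, against 2.02% of all genes, and 7 members, 4 higher and 3 lower, had an unadjusted p under 0.05, as had 10% of all genes. The 95% confidence interval of all 76 differences stayed within a 1.3-fold change in either direction.

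Mrpl45, whose protein sits at the exit of the nascent chain and holds the ribosome to the inner membrane, was the lowest member. Its levels were 8.89, 8.87, 8.74, 8.74 and 8.87 in MSTN-null embryos, against 9.15, 9.22, 9.01, 8.82 and 8.90 in wild-type embryos. The wild-type pools spread widely and pool 4 lay among the MSTN-null values. The difference was -0.20 ± 0.07 (SE), with a q of 0.214. Mrps10, the counterpart of a bacterial protein of the small subunit head, was at 8.88, 8.99, 9.07, 8.94 and 8.96 in MSTN-null embryos, against 8.79, 8.89, 8.60, 8.80 and 8.82 in wild-type embryos. The groups overlapped by a single pair of pools, and the difference of 0.19 ± 0.05 (SE) had a q of 0.124. Smaller differences with unadjusted p under 0.05 were seen for Mrps26 (0.10) and Mrpl46 (0.09), both specific to mitochondria. They were also seen for the counterparts of bacterial proteins Mrpl15 (0.09), Mrpl9 (-0.10) and Mrpl21 (-0.13). None of these genes passed the q threshold.

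The genes of the functional landmarks of the ribosome had small differences at this stage. Mrpl12 and Mrpl10, which form the stalk that recruits translation factors, had differences of -0.01 ± 0.05 and 0.01 ± 0.04 (SE). Mrps12, at the decoding site, had -0.01 ± 0.05, and Mrpl3, near the peptidyl transferase centre, had -0.01 ± 0.04. Mrps15, an early binder of the small subunit RNA in bacteria, had -0.09 ± 0.05. The 3 relatives of bacterial S18 had -0.01 for Mrps18a, 0.02 for Mrps18b and 0.04 for Mrps18c. An unadjusted p under 0.05 was reached by none of these 8 genes.

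At 17.5 d.p.c. most members had a slightly higher mean in MSTN-null hindquarters, although no single gene was DE. A positive difference was measured for 70 of the 76 genes (92.1%), against 48.6% of all genes, and the median difference was 0.07 against -0.003 over all genes. Over all 156 probe sets of the members the share was lower, at 129 (82.7%). Of the 42 genes with several probe sets, 13 had probe sets of opposite sign. No gene of the whole table was called at this time point, a background of 0%. An unadjusted p under 0.05 was found for Mrps21, Mrpl54, Mrps33 and Mrpl41, all higher, and for 3.09% of all genes. The genotypes did not overlap for 2 members, both higher in MSTN-null, against 0.187% of all genes in that direction. Small subunit genes (27 of 29 higher, median 0.06) and large subunit genes (43 of 47, median 0.07) gave like counts, and so did genes with a bacterial counterpart (41 of 45) and those specific to mitochondria (29 of 31).

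**Figure D1:**
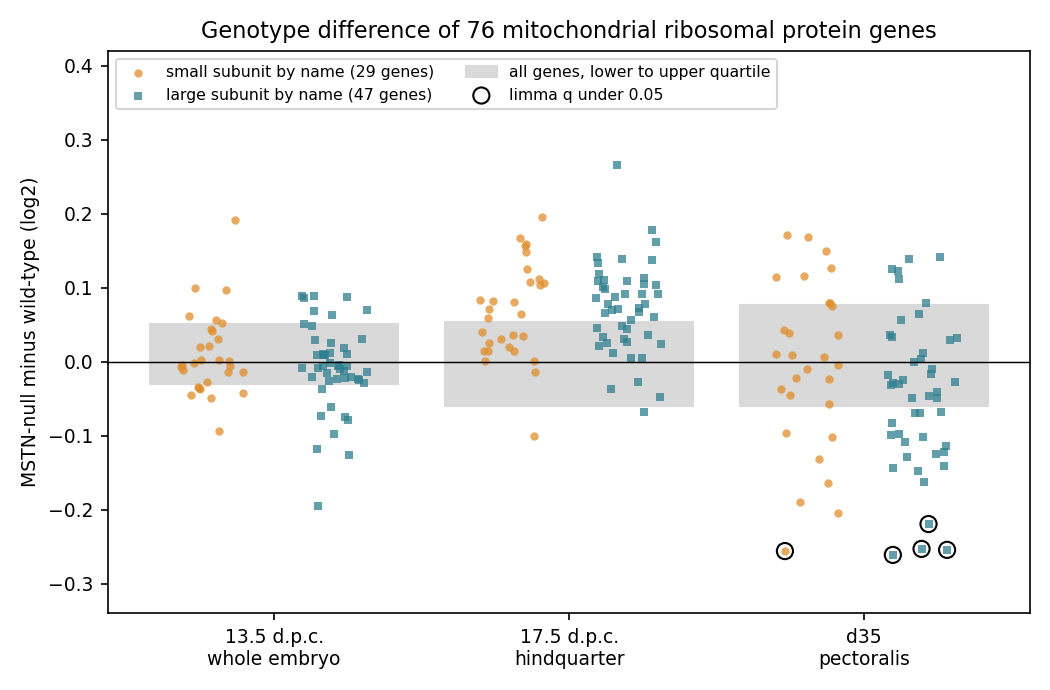
Difference between MSTN-null and wild type (log2, vertical axis) for each of the 76 genes at the 3 time points, by subunit name, with the interquartile range of all genes as a grey band and DE members ringed. The points straddle 0 at 13.5 d.p.c., lie above it for 70 of 76 genes at 17.5 d.p.c., and hold 5 ringed genes below it at d35.

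The shift was not shared by all MSTN-null pools, and the 76 genes moved together within a pool. Averaged over the 76 genes as a deviation from the mean of the 10 pools, the MSTN-null pools stood at 0.12, 0.13, 0.06, -0.08 and -0.06, against -0.01, -0.11, 0.04, -0.01 and -0.08 in wild-type pools. MSTN-null pools 1, 2 and 3 were the highest of the 10, while MSTN-null pools 4 and 5 lay within the wild-type range, so the genotypes overlapped. The number of members with a positive difference ranged from 57 to 71 and the median from 0.05 to 0.09 when each pool was left out in turn. Without MSTN-null pool 5 and wild-type pool 1 together it was 70, with a median of 0.11. Other gene groups had a like shift: 46 of 54 cytosolic ribosomal protein genes and 72 of 90 genes of the respiratory chain and ATP synthase had positive differences, with medians of 0.06 and 0.05. Both groups were taken by the start of the gene symbol. That rule also takes in kinases of ribosomal proteins and assembly factors of the respiratory chain, which were not removed. In these pools the respiratory chain genes stood at 0.09, 0.10, 0.06, -0.08 and -0.06 in MSTN-null and -0.01, -0.08, 0.06, -0.03 and -0.07 in wild type. MSTN-null pools 1 and 2 were the highest on both groups of genes, and on the respiratory chain genes MSTN-null pool 3 lay at the level of wild-type pool 3.

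Hindquarter dissection carries other tissue, and its markers varied between the pools. The mean deviation of 10 liver genes was 0.46, 0.17, 0.42, -0.50 and -3.85 in MSTN-null pools, against 1.16, 1.01, 0.53, 0.999 and -0.40 in wild-type pools. All 10 liver genes had a lower mean in MSTN-null, with a median difference of -1.21 and 0 of them DE, and albumin (Alb) averaged 13.04 in MSTN-null and 14.03 in wild-type pools. Skeletal muscle markers had a higher mean in MSTN-null for 9 of 10 genes (median 0.17) and white adipocyte markers for 7 of 7 (median 0.13), whereas 5 of 7 erythroid markers (median -0.41) and 6 of 8 neuronal markers (median -0.15) had a lower mean, none of them DE. The mean deviation of the muscle markers ran from -0.15 to 0.29 in MSTN-null pools, against -0.36 to 0.35 in wild-type pools. The actin 3′ to 5′ difference on chip A was 0.24 to 0.37 in MSTN-null pools, against 0.29 to 0.54 in wild-type pools, with wild-type pool 5 the highest. Without that pool the difference was positive for 62 of the 76 mitoribosomal genes, and its median was 0.06. An added fit took the liver level of each pool as a covariate, and no named member was DE in it. That fit was used for calls only, and the part of these tissues and of RNA quality in the shift was not tested. In such tissue, fewer cells of a type and less RNA per cell cannot be told apart.

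**Figure D2:**
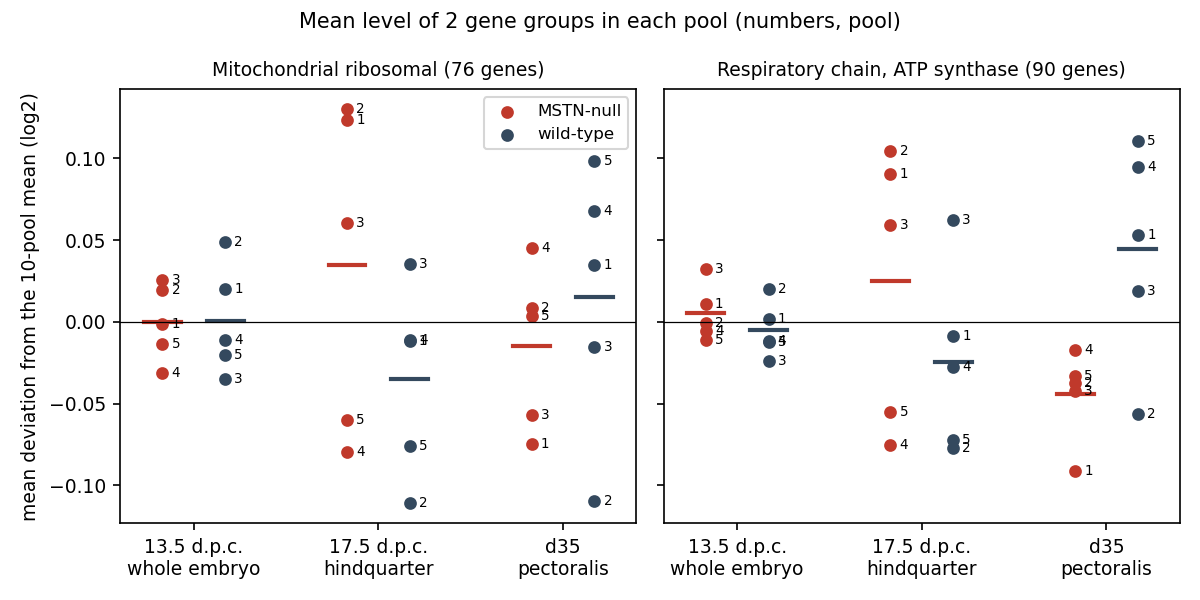
Mean deviation of each pool from the average of the 10 pools of its time point (log2, vertical axis) for the 76 mitochondrial ribosomal protein genes (left) and 90 genes of the respiratory chain and ATP synthase (right), MSTN-null left of wild type, with bars at the group mean. In the left panel at 17.5 d.p.c. MSTN-null pools 1, 2 and 3 stand highest (0.06 to 0.13) and pools 4 and 5 low (-0.08 and -0.06), inside the wild-type range, while in the right panel MSTN-null pool 3 and wild-type pool 3 lie together at 0.06.

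Mrps21, the counterpart of bacterial S21 in the small subunit, separated the genotypes at this stage. Its levels were 10.09, 10.20, 10.08, 10.05 and 10.00 in MSTN-null hindquarters, against 9.76, 9.94, 9.98, 9.87 and 9.88 in wild-type hindquarters. All 5 MSTN-null pools were above all 5 wild-type pools, and the difference was 0.20 ± 0.06 (SE), with an unadjusted p of 0.00637 and a q of 1. Mrps16, also with a bacterial counterpart, was the other member without overlap (0.15 ± 0.07, SE) and is named for that after its values were seen. Mrpl54, a mitochondria-specific protein of the large subunit, was at 9.29, 9.14, 8.93, 9.02 and 9.11 in MSTN-null, against 8.92, 8.86, 8.96, 8.81 and 8.61 in wild type. MSTN-null pool 3 fell among the wild-type values, and the difference was 0.27 ± 0.08 (SE). Mrps33 (0.16 ± 0.07, SE) was higher in MSTN-null pools 1, 2 and 3, at 9.60, 9.65 and 9.54, than in any wild-type pool (9.28 to 9.39), while MSTN-null pools 4 and 5 (9.38 and 9.34) lay within the wild-type range.

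The 6 members with a negative difference included Mrps25 (-0.10 ± 0.09), Mrpl1 (-0.07 ± 0.07), the protein of the stalk beside the exit of the transfer RNA, and Mrpl38 (-0.04 ± 0.07, SE). None had an unadjusted p under 0.05. The stalk proteins Mrpl12 and Mrpl10 had 0.11 ± 0.11 and 0.07 ± 0.06, Mrpl45 had 0.07 ± 0.04, and Mrpl3 had 0.14 ± 0.09 (SE). Mrps12 had 0.00 ± 0.08 and Mrps15 0.03 ± 0.08. The S18 relatives stood at 0.07 for Mrps18a, 0.06 for Mrps18b and 0.08 for Mrps18c. Intervals were wider here than at 13.5 d.p.c.: 71 of 76 stayed within 1.3-fold, and the intervals of Mrpl18, Mrpl54, Mrps6, Mrps10 and Mrps28 reached past it on the higher side.

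At d35, in pectoralis muscle, 5 mitochondrial ribosomal protein genes were DE, all lower in MSTN-null mice: Mrpl34, Mrps9, Mrpl44, Mrpl3 and Mrpl39. Each was at 0.834 to 0.859 of its wild-type level. As a share this is 6.58% of the members, next to 5.96% of all genes called in either direction and 3.26% called lower, so the share of DE genes in the group was close to that of the arrays as a whole. The median difference was -0.03, against 0.01 over all genes, with 29 members higher and 47 lower, where 44.9% of all genes were lower. The genotypes did not overlap for 6 members, the 5 DE genes and Mrps21, against 6.53% of all genes. An unadjusted p under 0.05 was reached by 16 members, 4 higher and 12 lower, against 20.3% of all genes.

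Mrpl34, the counterpart of a small bacterial protein of the large subunit, had the lowest q. Its levels were 9.18, 9.23, 9.27, 9.32 and 9.27 in MSTN-null muscle, against 9.51, 9.45, 9.57, 9.39 and 9.61 in wild-type muscle. All MSTN-null pools were below all wild-type pools, with a difference of -0.25 ± 0.05 (SE, 95% interval -0.37 to -0.14, q = 0.0142). Mrps9, the counterpart of a bacterial protein of the small subunit head that reaches toward the peptidyl transfer RNA, was the only DE gene of the small subunit. It was at 7.41, 7.63, 7.41, 7.40 and 7.54 in MSTN-null muscle, against 7.75, 7.66, 7.75, 7.73 and 7.77 in wild-type muscle. MSTN-null pool 2 lay just below the lowest wild-type pool, and the difference was -0.26 ± 0.05 (SE, -0.37 to -0.14, q = 0.0148).

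Mrpl44, a mitochondria-specific protein with a fold related to ribonuclease III, was at 9.05, 8.85, 8.88, 8.89 and 9.002 in MSTN-null muscle, against 9.15, 9.09, 9.19, 9.20 and 9.14 in wild-type muscle. MSTN-null pool 1 and wild-type pool 2 lay closest, and the difference was -0.22 ± 0.05 (SE, -0.33 to -0.11, q = 0.023). Mrpl3, the counterpart of bacterial L3 near the peptidyl transferase centre, was at 8.71, 8.79, 8.80, 8.79 and 8.85 in MSTN-null muscle, against 9.05, 8.89, 8.98, 9.18 and 9.17 in wild-type muscle. MSTN-null pools spread less (SD 0.05) than wild-type pools (SD 0.12), and the difference was -0.26 ± 0.06 (SE, -0.39 to -0.13, q = 0.0235). Mrpl39, a mitochondria-specific protein related to threonyl-tRNA synthetase, was at 9.94, 10.17, 10.04, 10.19 and 10.12 in MSTN-null muscle, against 10.26, 10.28, 10.33, 10.38 and 10.47 in wild-type muscle. The groups again did not overlap, with a difference of -0.25 ± 0.06 (SE, -0.38 to -0.12, q = 0.0255).

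Whether the 5 genes passed the threshold depended on single pools, although their differences kept their size. With each pool left out in turn, the difference ran from -0.28 to -0.23 for Mrpl34, -0.29 to -0.24 for Mrps9, -0.25 to -0.20 for Mrpl44, -0.30 to -0.23 for Mrpl3 and -0.28 to -0.22 for Mrpl39. Without wild-type pool 3 only 1 gene, Mrpl3, was DE, without MSTN-null pool 3 there were 2, and without MSTN-null pool 1 there were 3, whereas without MSTN-null pool 5 there were 7. Without wild-type pools 2 and 3, the pair with the highest actin 3′ to 5′ difference, again only Mrpl3 was DE, although the median of the group was lower, at -0.09, and 16 of 76 members had a positive difference.

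**Figure D3:**
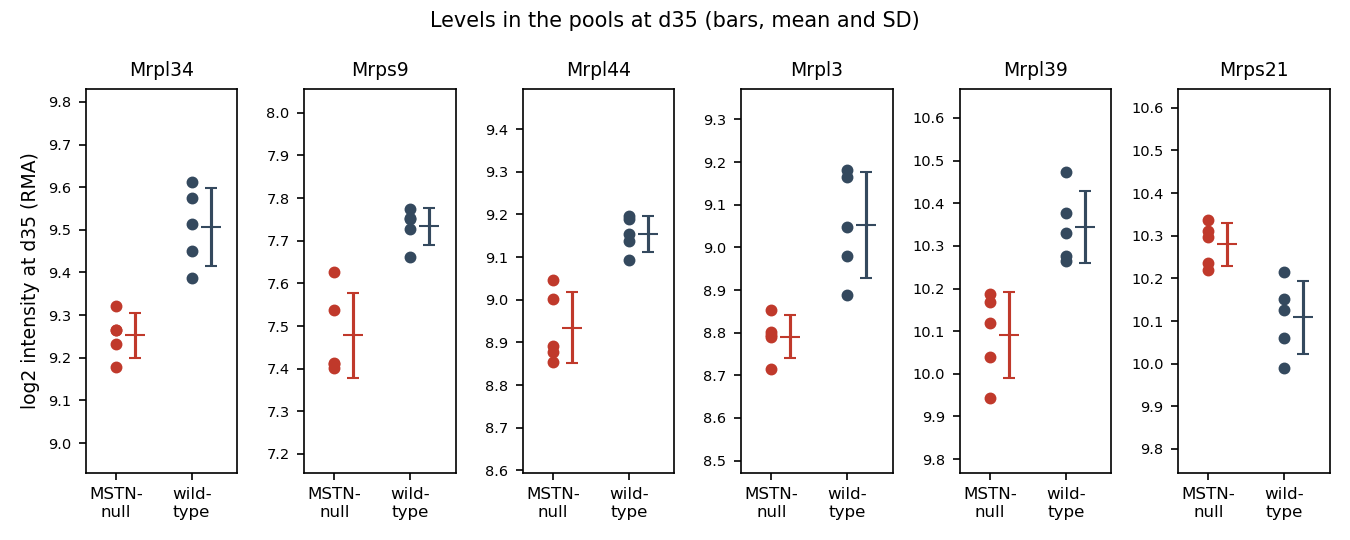
Log2 intensity at d35 (vertical axis, each panel spanning the same range) in the 5 MSTN-null pools (left) and 5 wild-type pools (right) for the 5 DE genes and Mrps21, with the mean and SD beside the points. The pools do not overlap in any panel, and Mrps21 is the panel with the higher level in MSTN-null.

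Other probe sets of the same genes moved less. The 5 DE genes have 11 further probe sets, all of them with a lower mean in MSTN-null, from -0.16 to -0.02, and none was DE. Mrpl3 had the next lowest, at -0.16 ± 0.07 (SE). When a gene was taken as the mean of its probe sets, only 1 member, Mrpl39, was DE. Mrpl41, a mitochondria-specific protein of the large subunit, showed the reverse case. Its brightest probe set was not DE (-0.15 ± 0.06, q = 0.132), another was (-0.32 ± 0.06, q = 0.00682), and the third was at 0.003 ± 0.06 (SE). It was the only gene of 27 with probe sets of opposite sign in which any was called.

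**Figure D4:**
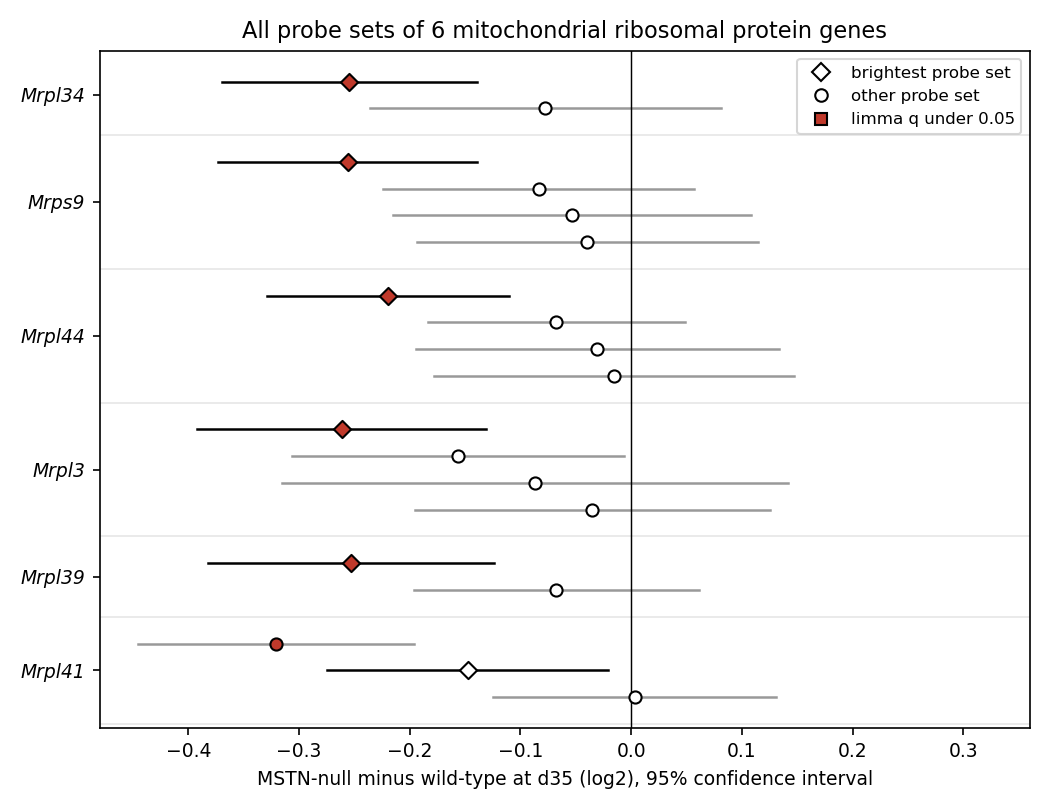
Difference between MSTN-null and wild type at d35 (log2, horizontal axis) with its 95% confidence interval for every probe set of the 5 DE genes and Mrpl41. The filled diamonds of the 5 DE genes lie between -0.26 and -0.22, their 11 open circles between -0.16 and -0.02.

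Mrps21 was the member with the largest positive difference at d35, as it had been separated at 17.5 d.p.c., and is named here after its values were seen. In whole embryos its difference on the same probe set was -0.002 ± 0.05 (SE). Its levels were 10.22, 10.31, 10.34, 10.30 and 10.24 in MSTN-null muscle, against 10.13, 9.99, 10.06, 10.15 and 10.21 in wild-type muscle. All MSTN-null pools were higher, by 0.17 ± 0.05 (SE), but the q was 0.063. The large and small subunits by name had 33 of 47 and 14 of 29 members with a lower mean, medians of -0.04 and 0.01, and 4 and 1 DE genes, and the difference between the subunits was not tested.

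Among the landmarks, the stalk gene Mrpl10 had -0.16 ± 0.06 (SE, q = 0.0943) and its partner Mrpl12 -0.14 ± 0.07 (q = 0.189). Mrpl45 had 0.03 ± 0.06, Mrps12 0.13 ± 0.08 and Mrps15 0.08 ± 0.07 (SE). The relatives of bacterial S18 went -0.04 for Mrps18a, 0.04 for Mrps18b and 0.12 for Mrps18c, none DE. For 74 of the 76 genes the interval stayed within 1.3-fold, and those of Mrpl3 and Mrpl39 reached past it on the lower side.

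Genes that work with the mitochondrial ribosome were taken from lists. Over all genes, 5.96% were DE at d35 and 44.9% had a lower mean, and 0.324% were DE at 13.5 d.p.c. Single calls in short lists are to be read beside these shares. Of 10 translation factors, Gfm1, the elongation factor that moves the ribosome along the message, was DE at d35, at 10.03 ± 0.05 in MSTN-null and 10.27 ± 0.08 in wild-type muscle (SD, n = 5 each, q = 0.0148). Of 16 mitochondrial aminoacyl-tRNA synthetases 1 was DE, Ears2, which charges glutamate, and it was higher in MSTN-null (0.22 ± 0.06 SE, q = 0.0467). None of 23 assembly and RNA modification factors was DE, with 17 lower and 6 higher. Lrpprc, which stabilises mitochondrial messages, was the DE gene of 11 in mitochondrial DNA transcription and maintenance (-0.25 ± 0.06 SE, q = 0.0298). Hspe1, the small partner of the mitochondrial chaperonin, was the DE gene of 10 in membrane insertion and proteostasis (-0.28 ± 0.05 SE, q = 0.00747). Ppargc1b, a coactivator of nuclear genes for mitochondrial proteins, was the DE gene of 10 regulators, at 9.51 ± 0.18 in MSTN-null and 9.81 ± 0.06 in wild type (SD, q = 0.0322). Of the factors behind the motifs above, Nrf1 had -0.05 ± 0.08, Gabpa, an ETS family member, -0.17 ± 0.07, Yy1 -0.09 ± 0.06 and Sp1 -0.13 ± 0.07 (SE) on their brightest probe sets, none of these DE. Sp1 was DE, however, on 1 of its 3 probe sets, at -0.36 ± 0.09 (SE, q = 0.0352), while none of the probe sets of the other factors was. The 4 mitoribosomal genes measured under other names, Dap3, Ptcd3, Chchd1 and Gadd45gip1, had differences from -0.11 to 0.10, none DE. At 13.5 d.p.c. the only call in these 7 lists was Tfb2m, a mitochondrial transcription factor (-0.27 ± 0.05 SE, q = 0.0364), and at 17.5 d.p.c. there was none.

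The products of mitochondrial translation join nuclear-encoded subunits. Of the 90 genes taken by symbol as nuclear respiratory chain and ATP synthase genes, 78 had a lower mean in MSTN-null muscle, against 44.9% of all genes. Assembly factors with such symbols were not removed, so not all 90 need be subunits. Their median difference was -0.08. Of these genes 9 (10%) were DE, all lower, against 5.96% of all genes DE in either direction and 3.26% DE lower. The mean deviation of these genes was -0.09, -0.04, -0.04, -0.02 and -0.03 in MSTN-null pools, against 0.05, -0.06, 0.02, 0.09 and 0.11 in wild-type pools. That of the mitoribosomal genes was -0.08, 0.01, -0.06, 0.04 and 0.00 in MSTN-null, against 0.03, -0.11, -0.02, 0.07 and 0.10 in wild type. The mitoribosomal means of the genotypes overlapped over most of their range, and wild-type pool 2 was the lowest wild-type pool on both. The 54 genes taken by symbol as cytosolic ribosomal protein genes had a median of -0.004. Of them 2 were DE higher and 1 lower (5.56%), close to the share of all genes. White adipocyte markers were lower in MSTN-null muscle for 7 of 7 genes, with a median of -0.55 and 4 DE (Cidec, Pparg, Fabp4 and Lipe), Cidec by -0.98 ± 0.21 (SE). Their mean deviation ran from -0.74 to 0.16 in MSTN-null pools, against 0.09 to 0.46 in wild-type pools. Of 10 skeletal muscle markers, Actn3 was DE higher, Myh1 and Mb were DE lower, and 8 had a higher mean, with myoglobin (Mb), the oxygen store of oxidative fibres, at 12.41 in MSTN-null and 13.60 in wild-type muscle. None of 7 erythroid and 8 neuronal markers was DE at d35. In whole embryos of 13.5 d.p.c., 6 of the 8 neuronal markers had a lower mean in MSTN-null and 2 a higher one (median -0.07). Of these only the neuronal RNA-binding protein gene Elavl4 was DE (-0.30 ± 0.06 SE, q = 0.0364). A higher mean was found there for 10 of 10 liver, 8 of 10 skeletal muscle, 6 of 7 erythroid and 6 of 7 white adipocyte markers, none DE. The part of these tissues in the mitoribosomal differences was not tested.

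The DE genes of d35 were followed on the same probe sets at the embryonic stages. In whole embryos and then hindquarters, Mrpl34 had -0.02 ± 0.05 and 0.09 ± 0.09, and Mrpl44 had -0.01 ± 0.04 and 0.07 ± 0.07 (SE). Mrpl3 had -0.01 ± 0.04 and 0.14 ± 0.09, and Mrpl39 had -0.03 ± 0.04 and 0.01 ± 0.07. Mrps9 stood apart from these, with 0.16 ± 0.05 and 0.02 ± 0.11 on the probe set that was DE at d35, whereas its brightest probe set at 13.5 d.p.c. had -0.04 ± 0.05 (SE). None of these embryonic values was DE. The difference between the genotype effects at d35 and 13.5 d.p.c. was tested in a fit of all 30 pools. These are whole embryos and pectoralis muscle, so age and tissue cannot be told apart in it. In this test 0 of 76 members passed q below 0.05, against 1.47% of all genes. Mrps9 came closest, at -0.41 ± 0.11 (SE, q = 0.0611), and passed with a q of 0.0379 when dim probe sets were left out.

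Mstn lies on chromosome 1, as do 4 members. In the order of measured genes, Mrpl15 lies 187 and Mrps9 31 genes before it, and Mrpl44 lies 184 and Mrps14 583 genes after it. The DE genes Mrps9 and Mrpl44 are thus 2 of the 4. Of the 1057 measured genes of chromosome 1, 83 (7.85%) were DE at d35, against 5.99% of all genes placed on a chromosome, and of the 100 nearest to Mstn 9 were. Mrpl15 had 0.09 ± 0.04, 0.18 ± 0.09 and 0.00 ± 0.06 (SE) in the order of the time points, and Mrps14 had 0.06 ± 0.04, 0.04 ± 0.10 and 0.15 ± 0.07, none DE. Whether the position beside the targeted gene has a part in these differences was not tested.

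Within a genotype the members varied together from pool to pool. After the mean of each genotype was removed, the median Pearson correlation over the 2850 pairs of members was 0.22 at 13.5 d.p.c., 0.44 at 17.5 d.p.c. and 0.48 at d35, each over 10 pools. The same quantity was 0.01, 0.00 and 0.02 over all pairs of genes, 0.02, 0.23 and 0.21 among cytosolic ribosomal protein genes and 0.11, 0.42 and 0.40 among respiratory chain genes. At d35, 88.2% of the mitoribosomal pairs had a positive correlation, against 52.2% of all pairs. The pairs share pools and arrays, so they are not independent, and the values are descriptions. For this reason a count such as 70 of 76 genes at 17.5 d.p.c. does not stand for 70 separate observations.

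A few probe sets could not be given to a single gene. Those shared by Gm6238 and Mrpl30, by Nme3 and Mrps34 and by Ccdc142 and Mrpl53 were not used for any member, although Mrps34 is a member through another probe set, and none of these 4 probe sets was DE at any time point, with differences from -0.13 to 0.10.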

How the data were processed

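The authors hybridized 30 RNA pools to 2 chips each (60 arrays) and normalized them by RMA in R/affy (version not given in the sources used here). The deposited values are log2 intensities, from 2.78 to 15.3. After 64 controls per chip were left out and 100 shared probe sets were taken from chip A, 45037 probe sets remained, 34945 with 1 gene symbol, 932 with several and 9160 with none. Genotypes were compared at each time point with limma 3.58.1 in R 4.3.3 with the data.table package (1.17.8), with Storey q-values over all probe sets (threshold 0.05, lambda 0.05 to 0.95 in steps of 0.05). The genotype fit was tested on simulated data, and the other steps were not. All 76 genes were matched to RefSeq by gene ID. Figures were drawn with Python 3.11.15 and matplotlib 3.10.9. Intensities have no counts behind them, so the number of pools (5 per genotype) limits the precision. The median SD between pools was 0.06, 0.13 and 0.10 for these genes, in the order of the time points.

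The members and the 12 gene lists were chosen with earlier results of these data known. Named members were those called, or the 3 smallest p-values in each direction where none was, together with 9 landmark genes, the members on chromosome 1, and genes with opposite probe sets of which 1 was called. Up to 4 called genes of each list were named, while Mrps16, Mrps21 at d35, the factors behind the motifs, the genes under other names, Mrpl18, Mrps6, Mrps28 and the markers of other tissues were named after their values were seen. Alternatives covered the p-value adjustment, chips fitted apart, a filter on dim probe sets, more normalization, variance options, a common fit, replicate numbers as blocks, the choice of probe set, and pools left out. Pools are separate animals, 3 to a pool.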

Additional observations from a re-analysis of the deposited data

Results flagged for a closer look

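A pool lay far from the other 4 of its genotype, by Dixon's ratio of its gap to the range, in 6 of 124 groups of 5 values examined, and chance alone gives about 1 in 20. At 13.5 d.p.c. MSTN-null pool 3 was high for Mrpl10 (10.06, the others 9.94 to 9.96). Wild-type pool 3 was low for Mrps12 (9.71, the others 9.83 to 9.87). Wild-type pool 2 was high for Mrps18b (9.59, the others 9.34 to 9.37) and for Mrpl44 (9.73, the others 9.54 to 9.58). At 17.5 d.p.c. MSTN-null pool 4 was low for Mrpl1 (7.12, the others 7.33 to 7.39) and MSTN-null pool 1 was low for Mrpl44 (9.36, the others 9.54 to 9.61). None of these genes was DE at that time point.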

How the results depend on the processing

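The count of DE members stayed at 0 at both embryonic time points under each alternative tried and with each pool left out, so the lowest and highest counts were both 0. The median difference ranged from -0.01 to 0.01 at 13.5 d.p.c., from 0.05 to 0.09 at 17.5 d.p.c. and from -0.06 to -0.003 at d35 when pools were left out in turn. At d35 the count of 5 went from 1 to 7 over the same settings. It was 3 with unmoderated variances, 1 with the mean of the probe sets of a gene and 1 without wild-type pools 2 and 3. With dim probe sets left out 1 member differed between d35 and 13.5 d.p.c., against 0. At no time point did all 5 same-numbered pairs of pools deviate together, so the numbers were not taken as pairs. At 17.5 d.p.c., however, pairs 1, 3 and 5 correlated at 0.304, 0.388 and 0.485 (pairs 2 and 4 at -0.199 and -0.07), and 6 of 10 pools were closest to their own number, against 1 of 10 at the other time points, a hint from the data and not the design. With the replicate block, as a paired fit, the counts were 0, 0 and 5. Over 1114 comparisons of 53 member results with an alternative, 22 lost their call, 2 gained one (Mrpl10 at d35) and 0 reversed. All losses fell on the 5 DE genes of d35, each with 21 alternatives. The call was lost in 3 for Mrpl34, 4 for Mrps9, 6 for Mrpl44, 4 for Mrpl3 and 5 for Mrpl39. The other results had no call to lose, and a change of sign without a call was not counted as reversed.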
